A study of Mus musculus with 12 samples.

Results

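Proteasome genes were taken from the deposited count table by name. All 22462 genes were searched for symbols of the families Psma to Psmg followed by a digit, with pseudogenes left out, and 50 genes matched. Of these, 49 encode subunits, activators, inhibitors or assembly factors of the proteasome. The remaining match, Psmc3ip, encodes a recombination factor that shares only the start of its name with the family. The 49 genes comprised 7 alpha and 7 beta subunits of the constitutive core, 5 inducible or tissue-specific core subunits, 9 subunits of the base, 8 of the lid, 5 activator genes, 1 inhibitor and 7 assembly factors.

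Ribosome protected fragments (RPF), the stretches of mRNA that ribosomes shield from nuclease, and total RNA were sequenced from mouse embryonic stem cells (ESC) and from epiblast-like cells (EpiLC). ESC are naive pluripotent cells and were kept in Knockout DMEM with 15% Fetal Bovine Serum, LIF and the 2i inhibitors PD0325901 and CHIR99021. EpiLC are the formative cells that the same ESC give rise to, and were collected about 56 hours after LIF and 2i had been taken away, which was done 24 hours after plating. The study's methods name a V6.5 ESC line with miR290-mCherry and miR302-GFP reporters for its differentiation experiments, so that the 4 groups (ESC RPF, EpiLC RPF, ESC total RNA, EpiLC total RNA) of 3 libraries each stand for a single genotype with no knockout. The study calls its replicates biological, but no source states that they came from separate cultures. P-values therefore measure the spread between these libraries. As these are bulk samples, fewer cells that express a gene and less RNA per cell cannot be told apart.

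The proteasome is the main protease of the cytosol and nucleus. Its core is a barrel of stacked alpha and beta rings with the proteolytic sites inside, and a cap made of a base, with an ATPase ring that unfolds substrates, and a lid, with a deubiquitinase, feeds ubiquitin-tagged proteins into it. Within the core, within the ATPase ring and within the lid the subunits are present in equal number, so that their RPF can be set beside each other per nucleotide. Alternative beta subunits make the immunoproteasome, which cells use to produce peptides for antigen presentation, and alternative caps such as PA28 and PA200 open the core without ubiquitin.

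Library totals ranged from 2681439 counts (EpiLC RPF replicate 2) to 14655015 (EpiLC total RNA replicate 1). The 5 naive markers (Zfp42, Esrrb, Klf4, Tfcp2l1, Nr0b1) were lower and the 4 formative markers (Dnmt3b, Otx2, Fgf5, Pou3f1) higher in EpiLC by limma, as the labels imply. Sox2 and Pou5f1, listed here as shared by both states, were lower in every EpiLC library of either assay. In counts per 1000000 per kb of counted sequence, Sox2 total RNA read 218, 189 and 233 in ESC and 35.3, 26.7 and 32.6 in EpiLC. Pou5f1 total RNA read 1517, 1526 and 1644 in ESC and 1023, 891 and 1054 in EpiLC. Among 11 markers of other lineages, 5 were too low to test, and Pax6, Col1a1 and Thy1 were higher in EpiLC total RNA. Their summed level was 16.4 to 20.1 CPM (counts scaled to library totals, in parts per 1000000) in ESC total RNA and 34.9 to 41.7 CPM in EpiLC total RNA, and 25 to 27.4 and 63.5 to 72.7 CPM in RPF. Cdx2 was at 0 in ESC total RNA and EpiLC RPF. The part of such cells in the changes below was not tested. The 50 genes took 1.13% to 1.16% of the counts in ESC RPF, 0.996% to 1.02% in EpiLC RPF, 0.970% to 0.984% in ESC total RNA and 0.888% to 0.905% in EpiLC total RNA. The ranges of the cell types did not overlap in either assay, with EpiLC the lower.

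The authors kept reads with a single mapping position, and several proteasome genes have processed copies elsewhere in the genome that are nearly identical to their coding sequence. To find which subunits this touches, each 29-base stretch of a member's coding sequence was looked up in the Gencode M21 transcripts of all other genes. At 29 bases, about the length of an RPF, 29 of the 50 members were unique at every start position, and 8 were unique at fewer than 50% of them. Those 8 were the core subunits Psma3 (6.94% unique), Psma5 (9%), Psmb3 (20%), Psmb5 (23.8%) and Psma4 (42.0%), the lid subunit Psmd11 (45.5%) and the PA28 genes Psme2 (20.7%) and Psme2b (20.1%), which mainly share sequence with each other. The base ATPase Psmc1 (50%) and the base scaffold Psmd2 (50.5%) lay just above that limit. Counts of all of these are uncertain as levels.

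The coding windows printed here show how close the copies are. Each pair gives 90 bases of a core subunit's longest coding exon that align without a gap and the same 90 bases of its processed copy, 5′ to 3′ along the gene, with bases that differ in capitals (GRCm38, the assembly of mm10).
Psma3, chr12:70983319-70983408, plus strand: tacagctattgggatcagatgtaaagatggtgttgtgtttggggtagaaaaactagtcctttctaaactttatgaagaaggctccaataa
Gm13835, chr6:31142553-31142642, minus strand: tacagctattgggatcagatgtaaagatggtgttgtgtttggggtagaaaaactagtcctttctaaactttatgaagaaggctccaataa
Psma5, chr3:108265094-108265183, plus strand: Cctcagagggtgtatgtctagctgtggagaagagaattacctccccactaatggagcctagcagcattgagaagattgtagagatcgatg
Gm12989, chr4:135716380-135716469, minus strand: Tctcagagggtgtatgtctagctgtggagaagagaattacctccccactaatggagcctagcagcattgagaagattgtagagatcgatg
Psmb5, chr14:54616668-54616757, minus strand: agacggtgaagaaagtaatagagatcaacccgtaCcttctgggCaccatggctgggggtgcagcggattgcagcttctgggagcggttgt
Gm3375, chr7:3181356-3181445, plus strand: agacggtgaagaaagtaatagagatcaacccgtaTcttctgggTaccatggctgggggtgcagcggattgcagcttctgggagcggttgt
The Psma3 window did not differ from Gm13835 at any base, the Psma5 window differed from Gm12989 at 1 base and the Psmb5 window from Gm3375 at 2 bases. Over the whole aligned coding sequence, Psma3 was identical to Gm13835 at 98.5% of 682 bases, Psma5 to Gm12989 at 99.0% of 720 bases and Psmb5 to Gm3375 at 99.0% of 792 bases.

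To compare subunits with each other, counts were expressed as density, that is CPM per kb of counted coding sequence. The 14 constitutive core subunits had a median RPF density of 391 ± 13.1 CPM per kb in ESC and 385 ± 8.93 in EpiLC (SD, n = 3). Psmb4, a beta subunit without a catalytic site, had the highest RPF density of the core in both cell types. Its densities were 596, 666 and 724 CPM per kb in the ESC RPF libraries and 614, 629 and 588 in the EpiLC RPF libraries. Psma3, of the alpha ring, had the lowest, with 5.32, 6.37 and 3.04 CPM per kb in ESC RPF and 7.43, 5.16 and 3.32 in EpiLC RPF. The gap was 135-fold in ESC RPF and 27.85-fold in ESC total RNA. Psma3 was also the member with the fewest unique positions, and the part of this in its density was not tested.

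The other 4 core subunits under 50% unique did not share a single level. Psma5 had an RPF density of 56.0 ± 5.16 CPM per kb in ESC and 88.2 ± 18.2 in EpiLC, and Psmb5, which carries the chymotrypsin-like site, had 54.9 ± 13.6 and 43.7 ± 7.14 (SD, n = 3). Psma4 and Psmb3 were not low in RPF. Psma4, of the alpha ring, had 340 ± 24.9 CPM per kb in ESC RPF and 255 ± 17.8 in EpiLC RPF with 42.0% unique positions, close to Psmb7 with 351 ± 32.1 and 300 ± 25.2. Psmb3 had 411 ± 112 CPM per kb in ESC RPF with 20% unique positions. Its ESC libraries read 282, 472 and 481 CPM per kb, the first being far below the other two, while its total RNA density was 130 ± 9.17.

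The 9 core subunits with at least 50% unique positions (Psma1, Psma2, Psma6, Psma7, Psmb1, Psmb2, Psmb4, Psmb6 and Psmb7, the lowest of them 69.9% unique) lay much closer together. Their mean RPF densities ran from 351 (Psmb7, the trypsin-like site) to 662 CPM per kb (Psmb4) in ESC, a 1.89-fold range, and from 300 (Psmb7) to 610 (Psmb4) in EpiLC, a 2.03-fold range. The SD of log2 density over the subunits, computed within each library, was 1.99 ± 0.132 for the 14 core subunits in ESC RPF and 0.348 ± 0.067 for these 9. In EpiLC RPF the values were 1.90 ± 0.141 and 0.315 ± 0.028. For comparison, log2 RPF density over all 11750 genes tested had an SD of 2.62 ± 0.054 in ESC. The 9 subunits were chosen after the data had been seen, and the difference carries no test.

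**Figure D1:**
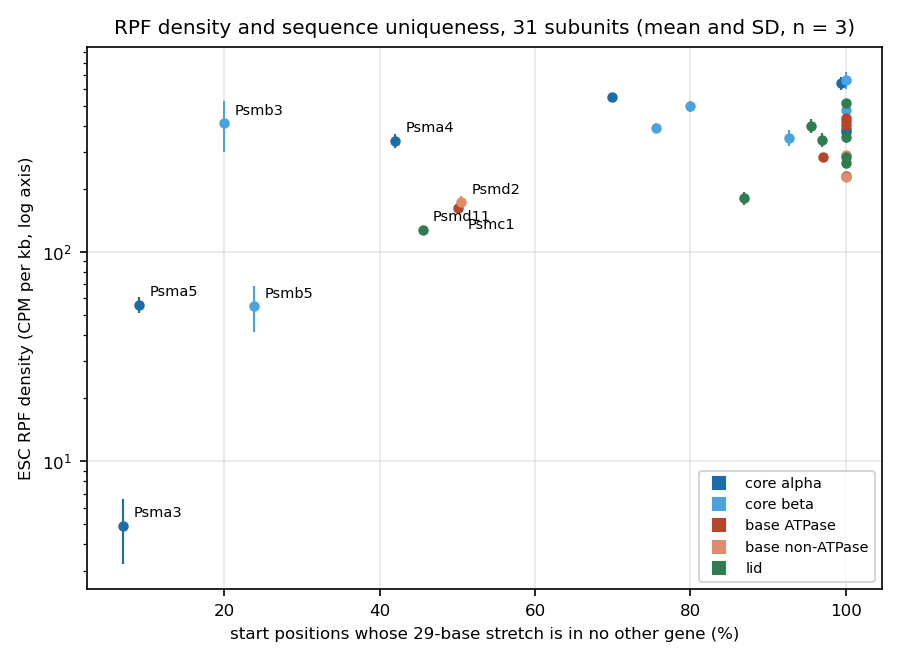
Mean RPF density in ESC (CPM per kb, log axis, bars SD, n = 3 libraries) of the 31 core, base and lid subunits against the percentage of start positions whose 29-base stretch occurs in no other gene, with subunits under 55% named. Psma3, Psma5 and Psmb5 sit at the lower left, between 4.91 and 56.0 CPM per kb, whereas Psmb3 lies at 411 with 20% unique positions.

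Whether RPF or total RNA density varied more depended on the core subunits and on the measure taken. Over all 14, the SD of log2 density was larger in RPF (values above) than in total RNA, where it was 1.25 ± 0.019 in ESC and 1.34 ± 0.054 in EpiLC. Per unique position it was also larger in RPF, at 1.1 against 0.580 in ESC. The interquartile range over all 14 went the other way. It was 0.643 in RPF and 1.39 in total RNA in ESC, and 0.726 and 1.55 in EpiLC. Among the 9 mostly unique subunits, chosen after the data had been seen, the SD was smaller in RPF. It was 0.275, 0.364 and 0.407 in the ESC RPF libraries and 0.457, 0.492 and 0.493 in the ESC total RNA libraries. In EpiLC it was 0.346, 0.291 and 0.308 for RPF and 0.442, 0.399 and 0.496 for total RNA. Every RPF library of a cell type was thus below every total RNA library of that cell type. Psmb2 was an example in ESC, where the median of the 9 was 376 ± 11.9 CPM per kb in total RNA and 465 ± 9.08 in RPF. Its total RNA density was 223 ± 10.5 and its RPF density 475 ± 17.3. Psma6 went the other way, from 304 ± 7.21 in total RNA, below the median, to 641 ± 47.0 in RPF, further above it.

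Per kb of counted sequence, the SD in the cap was larger in RPF than in total RNA. The SD of log2 density over the 9 base subunits was 0.539 ± 0.020 in ESC RPF and 0.340 ± 0.008 in ESC total RNA, and over the 8 lid subunits it was 0.649 ± 0.037 and 0.306 ± 0.024. For the base it was lower in EpiLC, at 0.402 ± 0.033 in RPF and 0.254 ± 0.007 in total RNA, and neither assay's libraries overlapped between cell types. For the lid it was 0.676 ± 0.014 in EpiLC RPF and 0.335 ± 0.017 in EpiLC total RNA. Over the 7 lid subunits with at least 50% unique positions it was 0.485 ± 0.043 in ESC RPF and 0.253 ± 0.027 in ESC total RNA. In the base, Psmc1 and Psmd2 were 50% and 50.5% unique at 29 bases but 79.4% and 72.8% at 50 bases. Their RPF can thus be lowered more than their total RNA, and the part of this in the base SD was not tested. With 3 libraries against 3, an exact two-sided permutation test cannot go below 0.10, and none was run on these spreads.

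Class medians put the core highest in RPF. Equal number was stated above only within the core, the ATPase ring and the lid, so ratios between classes do not measure balanced synthesis. The base had a median of 282 ± 11.6 CPM per kb in ESC RPF and 206 ± 1.92 in EpiLC RPF, and the lid 314 ± 10.7 and 255 ± 1.22. Relative to the core median of the same library, the base was at -0.48 ± 0.036 on the log2 scale in ESC and -0.90 ± 0.047 in EpiLC, and the lid at -0.32 ± 0.059 and -0.59 ± 0.040. The ESC and EpiLC values of both classes were further apart than their SDs. When only subunits with at least 50% unique positions were used, the base was at -0.72 and -1.05 and the lid at -0.44 and -0.71, and the order core, lid, base remained. Averages of log2 density in place of medians, which give weight to Psma3, put the base at 0.20 in ESC RPF and -0.07 in EpiLC RPF and the lid above the core in both, at 0.25 and 0.15.

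Within the base, Psmc5, an ATPase of the ring, had the highest RPF density per kb of counted sequence in ESC, and Psmc1, another ATPase, the lowest. Psmc5 read 450, 415 and 439 CPM per kb in the ESC RPF libraries and 278, 274 and 250 in the EpiLC RPF libraries. Psmc1 read 158, 159 and 170 in ESC RPF and 138, 151 and 185 in EpiLC RPF, which overlap. In EpiLC RPF the highest base subunit was the ATPase Psmc3 (319, 360 and 354 CPM per kb) and the lowest Psmd2 (141, 138 and 155), so that Psmc5 lost the first place it had held in ESC. These ranks are uncertain, as Psmc1 and Psmd2 are 50% and 50.5% unique. Per kb of unique positions in ESC RPF, Psmc3 at 470 lay above Psmc5 at 436, and Psmc1 at 325 above Psmc2 at 232. In EpiLC RPF, Psmd2 at 287 then lay above Psmc2 at 194.

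In the lid, Psmd7 had the highest density in both cell types and Psmd11 the lowest. Psmd7, the partner of the deubiquitinase subunit, read 524, 492 and 520 CPM per kb in ESC RPF and 558, 522 and 594 in EpiLC RPF. Psmd11 read 127, 133 and 122 in ESC RPF and 116, 111 and 115 in EpiLC RPF. Psmd14, the deubiquitinase itself, had 180 ± 13 and 166 ± 14.3 CPM per kb (SD, n = 3), the lowest of the lid subunits with at least 50% unique positions.

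**Figure D2:**
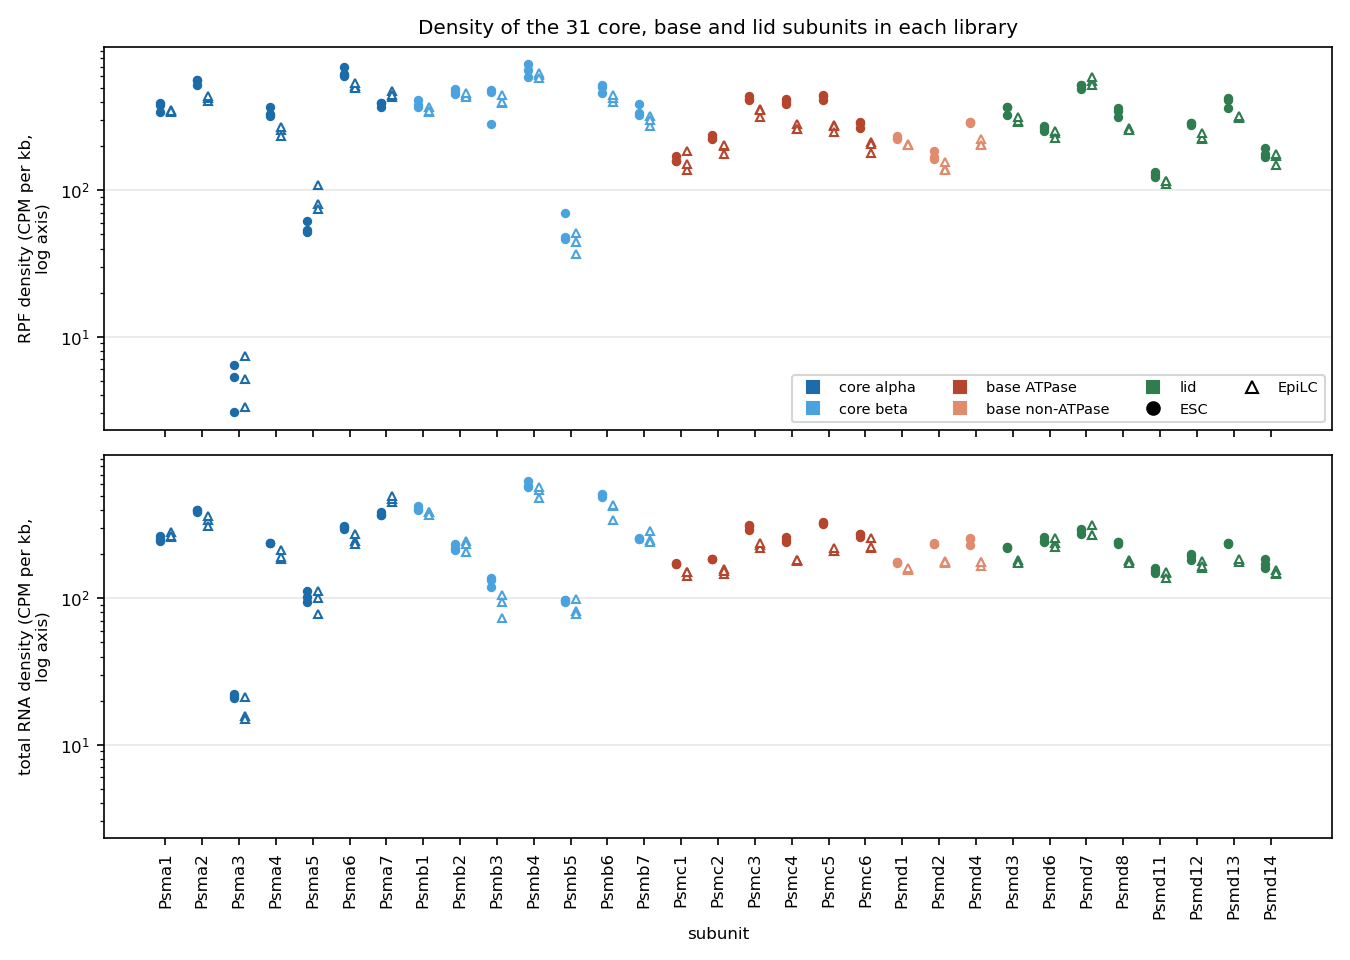
Density (CPM per kb of counted coding sequence, log axes) of the 31 core, base and lid subunits in each of the 3 ESC libraries (filled circles) and 3 EpiLC libraries (open triangles), for RPF above and total RNA below, coloured by class. Psma3, Psma5 and Psmb5 stand below the other core subunits in RPF, whereas in total RNA Psmb3 lies near Psma5 and Psmb5, and most base subunits have their EpiLC libraries under their ESC libraries.

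The other classes had lower median RPF densities. The 7 assembly factors had a median RPF density of 79.9 ± 3.41 CPM per kb in ESC and 78.1 ± 4.38 in EpiLC. Psmf1, which encodes the inhibitor PI31, was at 66.4 ± 7.60 and 76.6 ± 10.9. The 5 activator genes had medians of 56.6 ± 6.75 and 82.0 ± 1.65, and the 5 inducible or tissue-specific core subunits 3.76 ± 2.25 and 14.7 ± 1.17. The activators include Psme2 and Psme2b, whose levels are uncertain with 20.7% and 20.1% unique positions. Single genes did not all follow the medians. The activator Psme3 had 216 ± 11.9 CPM per kb in ESC RPF, above the lid subunit Psmd14 with 180 ± 13.

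The design asks which of these genes change as ESC become EpiLC. Of the 50 members, 48 had at least 3 CPM in at least 3 libraries and were tested with limma. Psmb11, the thymus-specific beta subunit, and Psme2b did not reach that level. In total RNA 25 of the 48 were lower in EpiLC at an adjusted p below 0.05, against 30.7% of all 11750 genes, and 10 were higher, against 34.6%. In RPF 25 were lower, against 28.7% of all genes, and 9 were higher, against 31.1%. The median log2 change of the 48 was -0.19 in total RNA and -0.17 in RPF, beside 0.03 and 0.01 over all genes. Most of the changes were small. With the study's further limit of an absolute log2 fold change above 1, 2 members were higher and 1 lower in total RNA (24.3% of all genes pass that limit in either direction), and 3 were higher and 1 lower in RPF (26%).

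Of the 31 constitutive core, base and lid subunits, 20 were lower in EpiLC in total RNA and 20 in RPF. Over all genes 30.7% were lower and 34.6% higher in total RNA, and 28.7% and 31.1% in RPF. None of the 31 passed the fold limit. All 9 base subunits were lower in total RNA and 8 in RPF, the exception being Psmc1. Of the 8 lid subunits, 5 were lower in total RNA and 6 in RPF, and none was higher. The 14 core subunits were more mixed, with 6 lower, 1 higher and 7 not called in total RNA, and 6 lower, 2 higher and 6 not called in RPF.

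Psmc5 had the largest fall of the constitutive subunits. Its total RNA density was 320, 333 and 325 CPM per kb in ESC and 212, 212 and 220 in EpiLC, and the groups did not overlap in either assay. Its log2 change was -0.60 ± 0.056 in total RNA (limma, SE, adjusted p = 9.06e-10) and -0.74 ± 0.061 in RPF (limma, adjusted p = 1.74e-10).

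The ATPase Psmc4 and the ubiquitin receptor Psmd4 followed. Psmc4 had RPF densities of 390, 420 and 406 CPM per kb in ESC and 281, 261 and 261 in EpiLC, a log2 change of -0.62 ± 0.059 (limma, adjusted p = 2.05e-09). Psmd4 had total RNA densities of 252, 231 and 258 CPM per kb in ESC and 167, 178 and 178 in EpiLC, a log2 change of -0.51 ± 0.061 (limma, adjusted p = 7.75e-08). All EpiLC libraries of both genes were below all ESC libraries of the same assay.

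Psma7, of the alpha ring, was the constitutive subunit that rose in both assays. Its total RNA density went from 376 ± 11.9 to 479 ± 21.4 CPM per kb (SD, n = 3), with a log2 change of 0.34 ± 0.056 (limma, adjusted p = 7.36e-06), and its RPF changed by 0.21 ± 0.064 (limma, adjusted p = 0.00761). Psma5 was higher in RPF (log2 change 0.63 ± 0.150, limma, adjusted p = 8.63e-04), but with 9% unique positions its counts are uncertain. Psmd7 (-0.02 ± 0.066 in total RNA and 0.10 ± 0.066 in RPF) and Psmb2 (0.06 ± 0.069 and -0.11 ± 0.068) were not called in either assay.

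**Figure D3:**
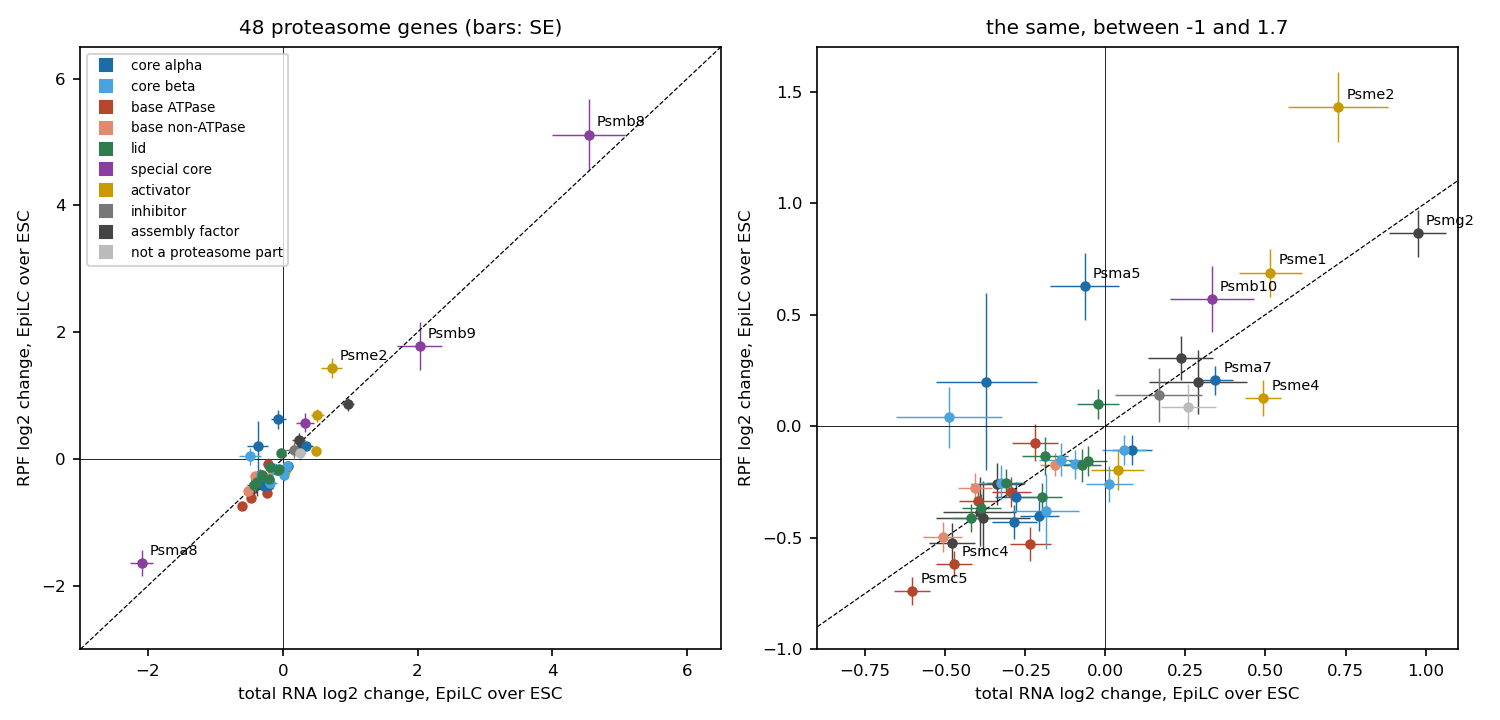
Log2 change from ESC to EpiLC in total RNA (x axis) and in RPF (y axis) of the 48 members tested (points, bars SE from limma), coloured by class, with the dashed line marking equal change, and the same data at closer range on the right. The constitutive subunits other than Psma5 lie between -0.74 and 0.34, with Psmb8 at the upper right and Psma8 at the lower left.

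Psmb8, Psmb9 and Psma8, of the alternative core subunits, had larger changes in total RNA than any other member, and Psmb10 a smaller one. The proteins of Psmb8, Psmb9 and Psmb10 are the catalytic subunits of the immunoproteasome and take the places of Psmb5, Psmb6 and Psmb7 in newly built particles. Psma8 replaces Psma7 in a particle best known from male germ cells. Of the 4 that could be tested, the 3 immunoproteasome subunits were higher and Psma8 was lower in EpiLC in both assays. Psmb8 and Psmb9 passed the filter of 3 CPM in 3 libraries only through their EpiLC libraries. For these genes a rise was the change that could be called, so the direction of the calls is partly set by the filter.

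Psmb8 was close to absent in ESC. It had 2, 1 and 3 counts in the ESC RPF libraries and 61, 32 and 49 in the shallower EpiLC RPF libraries, and 1, 7 and 3 against 94, 38 and 52 counts in total RNA. Summed over libraries and scaled to their totals, EpiLC exceeded ESC 44.3-fold in RPF (95% exact interval 19.8 to 123) and 20.8-fold in total RNA (11.4 to 42.4), intervals that cover counting error only. The fitted log2 changes were 5.12 ± 0.557 in RPF (limma, adjusted p = 2.15e-08) and 4.54 ± 0.542 in total RNA (limma, adjusted p = 6.93e-08). No ESC library of Psmb8 reached 3 CPM. The gene was thus tested only because its EpiLC libraries were high, and these p-values are no separate support for the rise.

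Psmb9 was low in ESC but measurable. Its RPF density was 3.43, 1.7 and 6.16 CPM per kb in ESC and 9.74, 19.4 and 15.6 in EpiLC, and its total RNA density 2.29, 2.38 and 3.54 against 11, 11.6 and 10.8. The groups did not overlap in either assay. The log2 change was 2.03 ± 0.332 in total RNA (limma, adjusted p = 8.04e-06) and 1.78 ± 0.379 in RPF (limma, adjusted p = 2.74e-04). Among its ESC libraries only RPF replicate 3 reached 3 CPM, so Psmb9 too was tested because of its EpiLC libraries.

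Psmb10 was well expressed before the transition. Its RPF density was 33.1, 53.9 and 47.2 CPM per kb in ESC and 63.0, 74.4 and 62.8 in EpiLC, a log2 change of 0.57 ± 0.148 (limma, adjusted p = 0.00180). Total RNA read 30.7, 35.9 and 40.8 in ESC and 45.7, 41.0 and 45.6 in EpiLC, so that the highest ESC and the lowest EpiLC library nearly met. The change there was 0.33 ± 0.131 (limma, adjusted p = 0.0294), and it was not called by edgeR (adjusted p = 0.0574) or DESeq2 (adjusted p = 0.122), nor by limma without ESC total RNA replicate 1 (0.22, adjusted p = 0.190) and several other single libraries.

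Psma8 fell. Its total RNA density was 43.6, 38.4 and 37.0 CPM per kb in ESC and 8, 9.13 and 11.9 in EpiLC, and its RPF density 44.5, 47.0 and 49.5 against 13.4, 11.6 and 19.6. The log2 change was -2.09 ± 0.174 in total RNA (limma, adjusted p = 1.08e-10) and -1.65 ± 0.207 in RPF (limma, adjusted p = 2.12e-07). It was the member with the largest fall in both assays. Psmb11 had 2 counts in 1 ESC total RNA library and 0 in the other 11 libraries, and no fold is given for it.

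Set beside the constitutive subunit it replaces, each alternative subunit took a minor share of the pair's RPF density. Psmb9 made up 0.737% ± 0.405 of Psmb9 and Psmb6 together in ESC and 3.35% ± 0.977 in EpiLC, and Psmb10 made up 11.4% ± 3.12 and 18.2% ± 0.933 of Psmb10 and Psmb7 (SD, n = 3). Psma8 moved the other way, from 10.8% ± 0.825 to 3.18% ± 0.888 of Psma8 and Psma7. The share of Psmb8 in Psmb8 and Psmb5 went from 0.573% ± 0.138 to 24.6% ± 1.88 in RPF and from 0.407% ± 0.345 to 8.47% ± 0.979 in total RNA. This share is uncertain, as 23.8% of Psmb5 positions are unique, and the part of this in it was not tested.

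**Figure D4:**
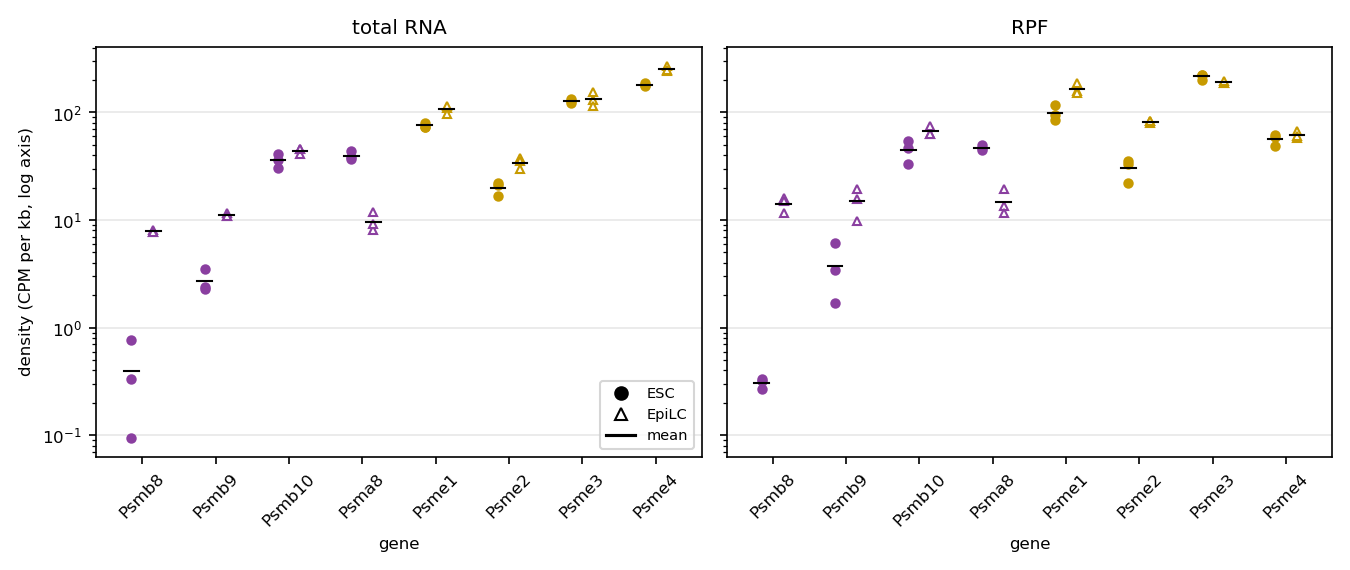
Density (CPM per kb, log axis) of the alternative core subunits and the activators in each ESC (filled circles) and EpiLC (open triangles) library, with the mean of 3 libraries as a bar, for total RNA on the left and RPF on the right. Psmb8 and Psmb9 lie far higher in EpiLC and Psma8 lower, whereas Psme3 and Psme4 RPF shift little.

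Among the activators, both subunits of PA28 alpha-beta, the interferon-inducible cap, rose. Psme1 had RPF densities of 118, 85.2 and 94.7 CPM per kb in ESC and 160, 187 and 153 in EpiLC, a log2 change of 0.69 ± 0.107 (limma, adjusted p = 5.37e-06), and changed by 0.51 ± 0.098 in total RNA (limma, adjusted p = 6.17e-05). Psme2 had 22.3, 33.2 and 35.5 in ESC RPF and 83.2, 80.1 and 82.7 in EpiLC RPF. Its log2 change was 1.43 ± 0.155 in RPF (limma, adjusted p = 1.99e-08) and 0.73 ± 0.156 in total RNA (limma, adjusted p = 2.31e-04). Both genes had no overlap between cell types in either assay, and neither is fully unique, with 66.2% unique positions for Psme1 and 20.7% for Psme2.

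The other caps behaved differently. Psme3, which forms nuclear PA28 gamma, had RPF densities of 221, 225 and 202 CPM per kb in ESC and 188, 186 and 196 in EpiLC, and total RNA densities of 121, 133 and 128 against 130, 154 and 115. Its changes of -0.20 ± 0.089 in RPF (limma, adjusted p = 0.0598) and 0.04 ± 0.083 in total RNA (limma, adjusted p = 0.696) did not pass, although the RPF groups did not overlap and the RPF change passed with DESeq2 (adjusted p = 0.0265) and without ESC RPF replicate 3 (limma, adjusted p = 0.0192). Psme4, which encodes PA200, rose in total RNA from 187, 181 and 175 to 244, 273 and 250 CPM per kb (log2 change 0.49 ± 0.056, limma, adjusted p = 3.19e-08). Its RPF densities of 62.1, 58.6 and 49.1 in ESC and 66.9, 57.8 and 60.8 in EpiLC overlapped, and the change of 0.13 ± 0.082 was not called (limma, adjusted p = 0.188) unless GC content was corrected for (0.31, limma, adjusted p = 1.26e-04). Psme2b stayed between 1 and 12 counts in every library.

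The assembly factors went both ways. Psmg2, a chaperone of the alpha ring, rose from RPF densities of 74.1, 71.7 and 61.4 CPM per kb to 120, 114 and 140, and from total RNA densities of 60.4, 65.4 and 55.5 to 114, 123 and 120. Its log2 change was 0.97 ± 0.089 in total RNA (limma, adjusted p = 6.33e-10) and 0.86 ± 0.105 in RPF (limma, adjusted p = 1.29e-07), and it had the highest RPF density of the class in EpiLC. Psmg1, its partner in the same chaperone, had the highest in ESC, at 144, 148 and 138 CPM per kb, and was lower in EpiLC, at 115, 116 and 131 (log2 change -0.26 ± 0.094, limma, adjusted p = 0.0202). The 2 partners thus moved in opposite directions.

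The base chaperone Psmd9 was higher in both assays and Psmd5, Psmd10 and Psmg4 were lower in both. Psmd10 had the lowest RPF density of the class, 52.8, 43.7 and 39.4 CPM per kb in ESC and 43.8, 30.9 and 28.4 in EpiLC, groups that overlapped. Psmg3 (0.29 ± 0.153 in total RNA and 0.20 ± 0.143 in RPF), whose counted sequence overlaps a same-strand neighbour for 171 of 324 nt, and Psmf1 (0.17 ± 0.135 and 0.14 ± 0.122) were not called. Psmc3ip was higher in total RNA (0.26 ± 0.086, limma, adjusted p = 0.0103) and not called in RPF.

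Translational efficiency (TE), the RPF level over the total RNA level, was tested as the interaction of assay and cell type. With limma, without a block, 0 of the 48 members were called higher and 0 lower, where 0.570% and 0.630% of all genes were called (0.255% with the fold limit). At an unadjusted p below 0.05 there were 3 higher (Psma5, Psmb3 and Psme2) and 5 lower (Psma1, Psma2, Psmb7, Psmc6 and Psme4), as for 13.9% of all genes. edgeR also called 0, and DESeq2 called Psma5 higher and Psme4 lower. Limma called the same genes in the same directions with a block by replicate number or by cell type and number. The nearest to the threshold with limma were Psma5 (0.69 ± 0.185, adjusted p = 0.0633) and Psme4 (-0.37 ± 0.099, adjusted p = 0.0678), followed by Psme2 (0.70 ± 0.220, adjusted p = 0.113). Without ESC RPF replicate 3, all 3 of these passed. The median TE change of the members was -0.02, beside 0.01 over all genes.

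As a level rather than a change, TE differed widely among members with fully unique sequence. Psme4 had an RPF share of 0.312 times its total RNA share in ESC and 0.242 times in EpiLC, which placed it at the 5.17th and 2.93rd percentile of all genes tested. Psmf1 lay at the other end, with 2.54 and 2.57 times and the 97.0th and 96.0th percentile. The core subunit Psmb2 had 2.13 and 1.95 times, and the base ATPase Psmc2 1.24 and 1.27 times.

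Of 34 further genes of the pathway, listed by role with earlier results of these data known, 33 were in the table (Paaf1 was not analysed here) and all 33 were tested. In total RNA 9 of the 33 were higher and 7 lower in EpiLC, beside 34.6% and 30.7% of all genes, and in RPF 9 were higher and 10 lower, beside 31.1% and 28.7%. These shares are near or below those of all genes. Those past the fold limit, which 24.3% of all genes passed in total RNA, were Tap1, Tap2 and Erap1 in both assays and Ecpas in total RNA, all higher.

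The first 3 act in antigen presentation beside the immunoproteasome, Tap1 and Tap2 as the peptide transporter and Erap1 as a trimming peptidase. Tap1 had RPF densities of 2.10, 1.87 and 1.24 CPM per kb in ESC and 18.8, 22.1 and 16.4 in EpiLC, a log2 change of 3.47 ± 0.283 (limma, adjusted p = 1.31e-10), and changed by 2.63 ± 0.218 in total RNA. Tap2 rose from 2.71, 2.13 and 2.52 to 18, 16.3 and 12.9 in RPF (2.58 ± 0.236, limma, adjusted p = 1.03e-09) and Erap1 from 1.63, 1.98 and 0.416 to 7.29, 6.92 and 6.45 (2.86 ± 0.345, limma, adjusted p = 1.13e-07). For all 3 the EpiLC libraries lay above the ESC libraries in both assays, and Tapbp, which holds the transporter to the loading complex, was also higher (0.26 ± 0.106 in total RNA, limma, adjusted p = 0.0344). Ecpas, a proteasome adaptor and scaffold, rose from 29.6, 33.2 and 31 to 61.4, 71.2 and 63.5 CPM per kb in total RNA (1.05 ± 0.066, limma, adjusted p = 4.76e-13) and by 0.96 ± 0.084 in RPF.

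Nfe2l1, the transcription factor that drives proteasome genes when proteasome activity falls short, was lower in EpiLC. Its total RNA density was 107, 111 and 105 CPM per kb in ESC and 80.4, 77.7 and 68.6 in EpiLC, a log2 change of -0.51 ± 0.063 (limma, adjusted p = 1.20e-07), and its RPF changed by -0.44 ± 0.070. Its relative Nfe2l2 was also lower in both assays (-0.25 ± 0.070 and -0.56 ± 0.075). Ddi2 and Ngly1, which process Nfe2l1 into its active form, were not called in either assay. Of the cap subunits without a Psm name, Adrm1, a ubiquitin receptor of the base, was lower in RPF (-0.56 ± 0.179, limma, adjusted p = 0.00954) and the lid peptide Sem1 higher in RPF (0.20 ± 0.087, limma, adjusted p = 0.0453). Their ESC RPF densities of 27.8 ± 6.53 and 1018 ± 135 CPM per kb lay below and above those of all named base and lid subunits. Unique positions were not computed for either gene, so these levels are uncertain. The RPF groups of Adrm1 overlapped, at 20.3, 30.5 and 32.5 CPM per kb in ESC and 17.9, 23.7 and 17.7 in EpiLC. Uchl5, the deubiquitinase bound to Adrm1, was the gene of this list called for TE (-0.49 ± 0.123, limma, adjusted p = 0.0454), and the call was lost with a GC correction (-0.30, limma, adjusted p = 0.187) and without most single libraries.

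Several of the genes that rose lie together on the chromosome (mm10, span of the counted coding parts). Psmb9 (chr17:34182224-34187264), Tap1 (chr17:34187925-34196774), Psmb8 (chr17:34198444-34201266) and Tap2 (chr17:34205340-34216093) follow each other in the major histocompatibility complex. Psme1 (chr14:55579601-55581381) and Psme2 (chr14:55587485-55590844) are separated by 6103 nt. Psmb10 (chr8:105935794-105937965) lies apart from them. In the RefSeq annotation the first bases of Psmb9 and Tap1 are 226 nt apart and the genes point away from each other, so that the stretch between them is upstream of both.

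That stretch is printed because both of its genes rose in both assays. It was searched on both strands for 4 motifs, CCAAT (a common promoter box), TTCNNNGAA (the kind of site bound by STAT factors), a pair of GAAA with NN between them (the kind bound by interferon response factors) and TGACNNNGC (the kind bound by Nfe2l1, Nfe2l2 and their partners), and the match, a CCAAT, is in capitals (RefSeq, GRCm38.p6, plus strand).
Psmb9 to Tap1, chr17:34187331-34187555: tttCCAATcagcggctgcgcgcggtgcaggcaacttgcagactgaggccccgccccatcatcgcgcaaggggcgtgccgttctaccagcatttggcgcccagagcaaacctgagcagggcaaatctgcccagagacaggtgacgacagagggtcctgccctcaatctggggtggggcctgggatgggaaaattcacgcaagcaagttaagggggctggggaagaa
Psmb8, the member with the largest rise, had a TTCNNNGAA match ending 89 bases before its first base, shown in capitals with the 40 bases on either side.
Psmb8, chr17:34198058-34198146, plus strand: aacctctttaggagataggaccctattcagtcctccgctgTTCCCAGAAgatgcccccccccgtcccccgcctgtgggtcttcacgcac
A window of 250 bases before the start was given for 41 of the 49 proteasome genes (not for Psma8, Psmb1, Psmb2, Psmb7, Psmc3, Psmd3, Psmd7 and Psmg2). TTCNNNGAA was found in 2 of the 41 (Psmb8 and Psmg1) and in 7.02% of 32851 windows of all genes, and the GAAA pair in 3 (Psmb3, Psmd4 and Psmd9) and 2.98%. TGACNNNGC was found in 5 of the 41 (Psmb5, Psmb6, Psmc6, Psmd12 and Psmd9) and in 10.2% of all windows, and CCAAT in 14 and 33.8%. These member counts are by gene, whereas the shares are by window. By window, TTCNNNGAA was in 4.55% of 44 member windows, the GAAA pair in 6.82%, TGACNNNGC in 11.4% and CCAAT in 31.8%. A match describes the letters of the window and says nothing of binding.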

How the data were processed

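The authors deposited raw counts per gene for 12 libraries in a single table of 22462 genes, together with the counted length. Per the study's methods and the submitters' processing notes, cutadapt 1.14 removed adapters, STAR 2.5.3a placed reads on mm10, of which those mapping to 1 position were kept (RPF of 26 to 32 nt), and 5′ ends were counted with featureCounts 1.5.3 over Gencode M14 coding sequence without its first 45 nt. Replicates were not pooled. No source used here states how PCR duplicates were treated. Groups and replicate numbers came from the sample titles.

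Identifiers were matched to symbols without their version, which gave 22385 symbols. The members and gene lists were chosen with earlier results of these data known. CPM were computed from library totals and divided by counted length for density. Counted length merges coding isoforms, which makes it 1.13 times the principal coding sequence less 45 nt for Psmd4, 1.11 times for Psmc3, 1.075 times for Psmd12, 1.03 times for Psmd8 and at most 1.009 times for other members. Genes with at least 3 CPM in at least 3 libraries were kept (11750), scaled by TMM (edgeR 4.0.16) and fitted with voom and limma 3.58.1 in R 4.3.3 with the 4 groups as levels. Voom and TMM were added here because the values are counts. P-values are two-sided and carry Benjamini-Hochberg adjustment across the genes kept. Log2 changes are EpiLC over ESC with 0.5 added to the counts, and errors are SE for changes and SD for levels. Uniqueness was computed on Gencode M21 transcripts, a later release than that of the counts. TE levels are the ratio of mean log2 CPM shares.

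Genes with per-library values were the highest and lowest RPF density of each class, the 3 largest rises and falls among members called, the alternative core subunits, the activators, pathway genes past the fold limit, and Nfe2l1. The fit was tested on simulated counts. Alternatives were edgeR, DESeq2 1.42.0, other scalings, filters, blocks and a GC correction, and leaving out each library. Pairs of libraries of a group differed beyond sampling noise in all cases (chi-square per degree of freedom 2.53 to 7.55).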

Additional observations from a re-analysis of the deposited data

How the results depend on the processing

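Counts of members called kept within 1.5 times of their values under each change of test, scaling, filter, block and GC correction, and without each library, for total RNA and RPF. Leaving out 1 library gave 7 to 10 higher and 20 to 28 lower in total RNA and 7 to 9 higher and 23 to 28 lower in RPF, and a fold limit of 1 left 2, 1, 3 and 1. TE counts were 1 higher (Psma5) and 1 lower (Psme4) under DESeq2, the replicate block and the culture block (both assays of a cell type joined by number), 1 (Psma5) and 0 under the GC correction with and without the replicate block, and 0 to 2 and 0 to 1 without 1 library. The study describes the total RNA as matched to the RPF. Deviations of same-numbered libraries correlated at -0.174 to 0.122, which with 3 libraries per group cannot show whether the numbers pair the samples. The replicate block gave 27 lower in RPF and 24 in total RNA. The median RPF change was -0.20 under DESeq2 and RLE scaling, -0.15 with total counts, -0.12 with the GC correction, with or without the replicate block, and -0.23 to -0.17 without 1 library.

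Densities depended on the choice of subunits, and the following alternatives by unique positions were chosen after seeing the data. The interquartile range of log2 RPF density over the core was 0.643 in ESC and 0.726 in EpiLC. The SD was 1.1 and 1.11 per unique position and 0.348 and 0.315 over the 9 mostly unique subunits. For total RNA these were 1.39 and 1.55, 0.580 and 0.611, and 0.481 and 0.446. The base relative to the core was 0.20 and -0.073 in ESC and EpiLC with means, 0.76 and 0.32 not divided by length, -0.77 per unique position in ESC, and -0.72 and -1.05 with mostly unique subunits. The lid was 0.25 and 0.15, 0.49 and 0.28, -0.76 and -0.89, and -0.44 and -0.71. Leaving out 1 library gave an SD of 1.92 to 2.04 for ESC and 1.82 to 1.96 for EpiLC RPF.

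No PCR duplicates were marked in the sources used here, so counting intervals are too narrow by an unknown amount. Psmb11 and Psme2b were too low to test, and Psmb8 had 6 counts over the 3 ESC RPF libraries.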
